A study of Mus musculus with 34 samples.

Results

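Open chromatin at 51 protein-coding genes of Wnt signalling was described in mouse hair follicle stem cells (HFSCs), out of 21757 protein-coding genes in the annotation of the mm39 genome. They are every gene whose symbol starts with Wnt or Fzd and a digit, together with Lrp5, Lrp6, the Dkk, Sfrp and R-spondin genes named below, and the main intracellular effectors and feedback genes. By role these were 19 ligands, 3 agonists, 12 receptors, 11 inhibitors and 6 effectors. Accessibility was read by ATAC-seq, which uses an enzyme that inserts sequencing tags where DNA is not packed away, and each of 34 libraries was deposited as a list of peaks. A peak was assigned to a gene when its summit lay in the gene body, up to 50 kb upstream or up to 5 kb downstream, so distance is the only link between a peak and a gene here. The windows of Wnt1 and Wnt10b, of Wnt6 and Wnt10a, of Wnt3 and Wnt9b, and of Wnt3a and Wnt9a overlap, and their shared peaks were counted for both genes.

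Wnt ligands are secreted proteins that bind a Frizzled (Fzd) receptor together with the co-receptor Lrp5 or Lrp6. This stops the destruction of beta-catenin (Ctnnb1), which then enters the nucleus and joins the DNA-binding TCF/LEF factors to switch on targets such as Axin2. R-spondins strengthen the signal by removing the ubiquitin ligases Znrf3 and Rnf43 that clear Frizzled from the cell surface, whereas Dkk, Sfrp, Frzb, Wif1 and Notum proteins act outside the cell to dampen it. In the hair follicle, Wnt signalling to the stem cells accompanies the start of a new growth phase, and low Wnt signalling accompanies rest.

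In vivo, HFSCs were sorted from wild-type mice at the end of the regression phase (CatVII wild type, n = 6) and at the end of the growth phase (AnaVI wild type, n = 2). CatVII HFSCs also came from mice lacking the nuclear receptor gene Rxra (CatVII Rxra cKO, n = 3) and from mice with Rxra (CatVII Rxra WT, n = 4). By the sorting scheme of the study, both genotypes (Rxra fl/fl in the cKO, Rxra +/+ in the WT) carried Sox9-creER, a tamoxifen-activated Cre driven by the Sox9 gene, and a YFP reporter on which the cells were sorted. Tamoxifen was given at the end of anagen. In culture, HFSC lines grown on feeder fibroblasts, either Rxra WT or Rxra cKO and all carrying Sox9-creER and treated with 4-hydroxytamoxifen, were given apoptotic HFSC corpses killed with cisplatin and treated with BEL (Rxra WT, n = 4), untreated corpses (Rxra cKO, n = 3, and Rxra WT, n = 4), a lipid mix without corpses (AA+LPC+RA, arachidonic acid with lysophosphatidylcholine and retinoic acid, n = 2 per genotype), or medium alone (n = 2 per genotype). BEL is an inhibitor of calcium-independent phospholipase A2, the enzyme that releases lysophosphatidylcholine from dying cells. Whether replicates came from separate mice or cultures is not given in the labels. The p-values therefore cover the spread among these libraries alone, which may be technical.

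The libraries held 4144 to 129876 called peaks each, with 4144 to 5740 in the 4 medium libraries, and the depth in reads is unknown because the lists hold no counts. Promoter peaks were called at 10 or 11 of 11 HFSC and basal keratinocyte markers in all CatVII Rxra cKO and Rxra WT libraries, at 1 to 10 in CatVII wild type, 3 to 10 in AnaVI wild type, 5 to 10 in Rxra WT AA+LPC+RA and 7 to 10 in Rxra WT corpse libraries, at 10 in each other culture with corpses or AA+LPC+RA, and at 0 to 2 in medium libraries. The lowest wild type libraries and the medium libraries therefore cannot be checked against their label. Cd34, an HFSC surface marker, had no promoter peak in any cultured library. Markers of other cells had promoter peaks at 0 to 4 of 6 fibroblast, 0 to 3 of 5 immune, 0 to 3 of 4 endothelial and 0 to 4 of 6 melanocyte genes. Tags inside the deposited peak names divide some groups: CatVII Rxra WT replicate 1 and all Rxra cKO libraries carry P42, whereas CatVII Rxra WT replicates 2, 3 and 4 carry P37. The stored names of these P37 libraries, P37_HFSC_NonPhago_4 to 6, continue those of the CatVII wild type NonPhago libraries, numbered 1 to 3. They may therefore come from the wild type cohort, and their names do not place them in the Rxra line. In the cultures with BEL-treated corpses, replicates 1 and 2 are tagged NonPhago and replicates 3 and 4 Phago, as are the Rxra WT cultures with corpses, and of the Rxra cKO cultures with corpses replicates 1 and 2 are NonPhago and replicate 3 Phago. CatVII wild type replicates 1 to 3 are Phago and 4 to 6 NonPhago, each stored with the numbers 1 to 3. CatVII Rxra cKO replicates 2 and 3 carry 1 stored mouse number, with the tags NonPhago and Phago, and may come from the same mouse. Replicate 3 is the only Phago-tagged library of its comparison, whose Rxra WT libraries are all NonPhago. Medium libraries are all NonPhago. Stored numbers repeat across tags in culture too, so n may count fewer mice or cultures.

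The DNA under 8 of the 21 regions called in more than 1 comparison, chosen after their values were seen, is shown first, as 200 bases centred on the summit, read 5′ to 3′ from the plus strand of GRCm39. Capitals mark a match to the AP-1 motif TGANTCA, the letters bound by Fos and Jun factors, searched on both strands. None of the 8 holds the TCF/LEF motif CTTTGAT.
Tcf7l2 intron, chr19:55783877-55784076: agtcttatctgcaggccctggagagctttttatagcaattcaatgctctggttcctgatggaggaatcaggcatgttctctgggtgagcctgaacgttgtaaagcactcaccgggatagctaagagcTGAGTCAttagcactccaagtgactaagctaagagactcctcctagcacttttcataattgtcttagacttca
Lrp6 intron, chr6:134477804-134478003: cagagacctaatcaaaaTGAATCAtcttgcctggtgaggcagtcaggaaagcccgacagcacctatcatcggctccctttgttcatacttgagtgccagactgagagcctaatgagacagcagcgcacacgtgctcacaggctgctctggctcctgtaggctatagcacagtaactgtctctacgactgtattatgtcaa
Fzd1 upstream, chr5:4838586-4838785: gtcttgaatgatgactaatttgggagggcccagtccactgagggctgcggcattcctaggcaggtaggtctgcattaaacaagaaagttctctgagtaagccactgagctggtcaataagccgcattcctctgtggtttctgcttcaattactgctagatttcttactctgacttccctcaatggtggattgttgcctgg
Wnt11 upstream, chr7:98438058-98438257: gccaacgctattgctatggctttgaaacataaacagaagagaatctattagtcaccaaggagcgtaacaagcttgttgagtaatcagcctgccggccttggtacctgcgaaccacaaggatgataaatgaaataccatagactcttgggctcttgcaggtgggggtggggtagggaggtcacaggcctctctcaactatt
Wnt16 upstream, chr6:22280214-22280413: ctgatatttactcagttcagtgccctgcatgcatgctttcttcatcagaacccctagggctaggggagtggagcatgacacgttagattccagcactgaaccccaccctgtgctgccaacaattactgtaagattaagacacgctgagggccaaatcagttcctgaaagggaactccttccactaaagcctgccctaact
Dkk3 upstream, chr7:111760774-111760973: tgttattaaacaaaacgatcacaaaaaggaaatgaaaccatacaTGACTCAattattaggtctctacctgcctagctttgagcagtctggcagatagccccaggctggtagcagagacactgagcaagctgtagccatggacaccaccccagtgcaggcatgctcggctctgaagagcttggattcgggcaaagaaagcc
Sfrp1 intron, chr8:23918799-23918998: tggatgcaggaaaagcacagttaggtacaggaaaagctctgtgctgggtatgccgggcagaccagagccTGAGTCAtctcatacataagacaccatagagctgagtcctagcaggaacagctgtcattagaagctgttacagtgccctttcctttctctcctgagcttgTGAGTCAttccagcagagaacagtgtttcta
Znrf3 intron, chr11:5244979-5245178: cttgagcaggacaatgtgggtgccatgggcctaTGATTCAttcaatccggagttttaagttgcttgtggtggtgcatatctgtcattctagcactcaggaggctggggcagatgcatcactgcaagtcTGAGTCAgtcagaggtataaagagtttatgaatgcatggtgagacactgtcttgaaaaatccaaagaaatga

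Of the 21, 7 (33.3%) held AP-1 letters, 5 of which are shown, at Lrp6, Dkk3, Sfrp1, Znrf3 and Tcf7l2, beside 3 without them. Other recurrent regions of Dkk3, Znrf3 and Tcf7l2 held none. Over all 785 regions found at the 51 genes when the 34 lists were merged, 180 (22.9%) held the AP-1 letters and 28 (3.57%) the TCF/LEF letters within the same 200 bases. Among all regions of the genome the shares were 24.9% and 3.03%. The direct repeats of retinoid receptors spaced by 2 and by 5 bases, named DR2 and DR5, were each present in 1 of the 785 regions (0.127%), against 0.110% and 0.0712% of all regions. Wnt-gene regions were thus close to the genome in each of these motifs. Of the 110 distinct regions described below, 104 had over 90% of their 25-base words occurring once in the genome, and the lowest share was 71.4%. At the summit, 49 of them lay in an intron, 42 between genes, 18 in a UTR and 1 in a coding exon.

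Promoters, taken as 1 kb on either side of a transcription start, ranged from always to never called. All 51 genes had a peak in their window in at least 8 libraries. Tle4, a Groucho-family co-repressor that TCF factors recruit, had a promoter peak in 34 of 34 libraries, including all 4 medium libraries. Among the receptors, Fzd5 had one in 33, Fzd4 in 31 and Fzd8 in 30 libraries, and the promoter of Tcf7l2, one of the TCF factors, in 30. The inhibitor Sfrp2 and the ligand Wnt8b had none in any library, although peaks lay elsewhere in their windows in 27 and 25 libraries. Tcf7l2 had the most peaks in all, 479 over the 34 libraries, followed by the co-receptors Lrp5 with 359 and Lrp6 with 345.

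The ligand promoters were more uneven than the receptor promoters. Wnt10b and Wnt11 had a promoter peak in 25 libraries each, Wnt10a in 24 and Wnt7b in 23. At the other end, Wnt2 had one in 7 libraries and Wnt8a in 1. All of the Wnt2 promoter peaks came from CatVII, with 2 of 3 Rxra cKO, 2 of 4 Rxra WT and 3 of 6 wild type libraries. Among the agonists, Rspo3 had a promoter peak in 15 libraries, against 2 for Rspo1 and 1 for Rspo2, whose peaks lay elsewhere.

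**Figure D1:**
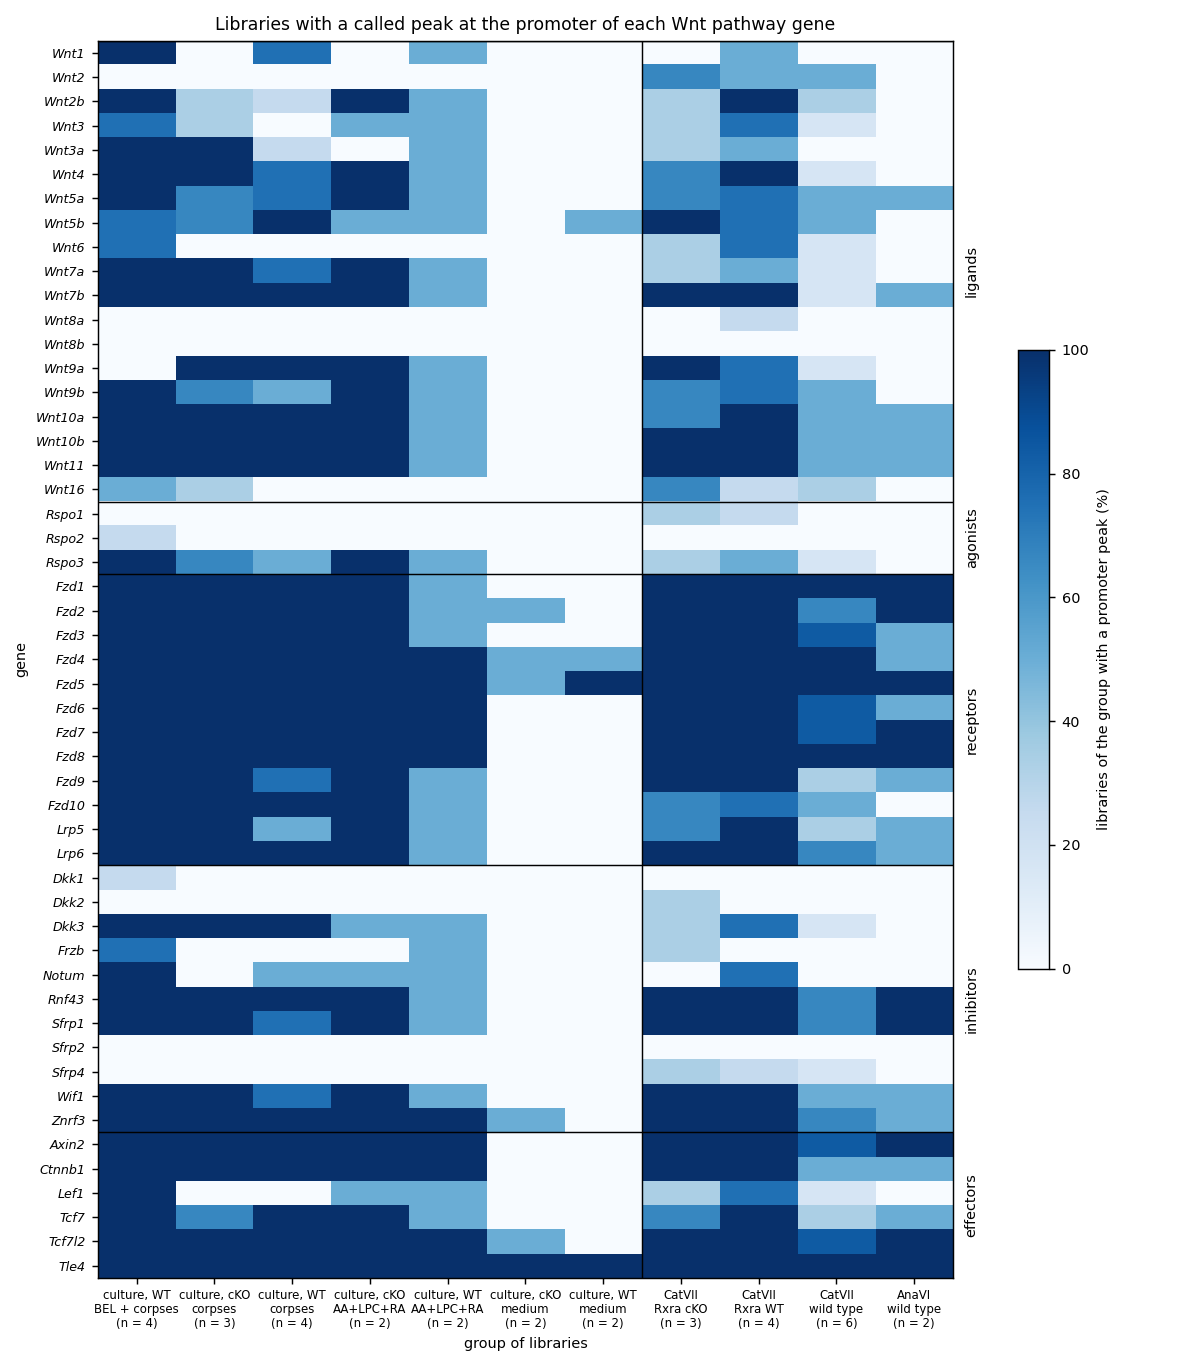
Share of the libraries of each group (columns) in which a peak was called within 1 kb of a start site of each of the 51 genes (rows, grouped by role), using all called peaks. Tle4 is filled in every group, Sfrp2 and Wnt8b are empty in every group, and the medium columns are nearly empty. Wnt9a is empty with BEL-treated corpses although a peak is present there, because its summit lies 1295 bp from the start.

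Because libraries differed widely in the number of peaks, each comparison used lists of equal length, made of the strongest peaks of every library by -log10 p, as many as its smallest library had. A region was called for a group when it held a peak in all of that group's lists and in none of the lists it was set against. Such calls come from presence and have no p-value, and each count is set beside the percentage of all regions in the genome called in the same way. Where every library of both groups had a peak, the ranks (1 for the strongest) were compared by limma, with the Benjamini-Hochberg adjustment over all such regions. A positive difference in -log2 rank means a stronger rank in the group named first. Of the 51 genes, 42 had at least 1 call in at least 1 of the 6 comparisons. The share of all genes with such a call was not counted, so the 42 cannot be read as a trait of Wnt genes. Tcf7l2, with the most called regions (15), also has the longest window (247 kb). Where calls are listed by role below, the share of callable regions held by that role was not counted. The genes with none were Lef1, Dkk1, Dkk2, Frzb, Wif1, Fzd8, Fzd9, Rspo3 and Wnt2.

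**Figure D2:**
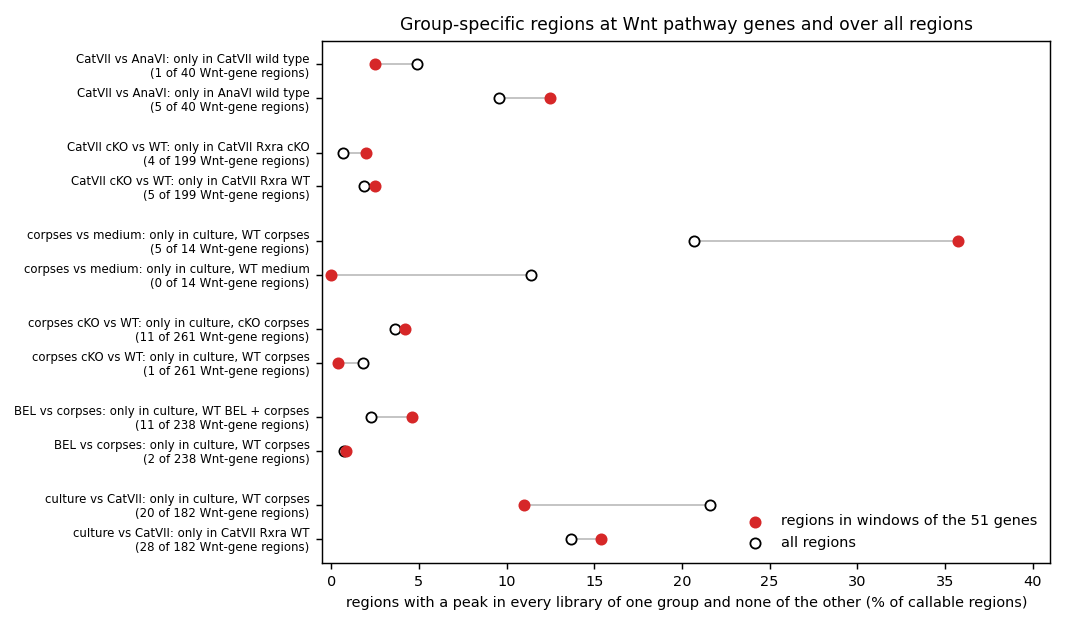
Percentage of callable regions with a peak in every library of one group and none of the other, for each side of the 6 comparisons (rows), in the windows of the 51 genes (filled) and over all regions of the genome (open). The filled points rest on 14 to 261 callable regions, and the widest distance, 35.7% against 20.7%, rests on 14.

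The first comparison asked how the Wnt genes' chromatin differed between late catagen and the end of anagen. At a list length of 8223 peaks, 1 region of 40 callable ones was called for CatVII wild type, against 4.92% of all regions, and 5 for AnaVI wild type, against 9.55% of all regions. In these lists 35 of the 51 genes had any region, beside 15068 of all 21757 protein-coding genes. The single CatVII region was the promoter of Fzd4, a Frizzled that also serves the ligand Norrin, at chr7:89052724-89054115, 38 bp from the start. Its ranks were 1516, 1014, 6053, 1397, 777 and 1688 in the 6 CatVII libraries, and it was in neither AnaVI list. In the full lists, however, 1 of 2 AnaVI libraries had a peak there, and the calls at Fzd4, Dkk3 and Wnt4 were each lost without CatVII wild type replicate 3. Without that replicate 14 regions were called for AnaVI, and without AnaVI replicate 1 or 2, 13 and 15.

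The AnaVI regions lay at an inhibitor, a ligand, a receptor and an effector. An intronic region of Dkk3, a divergent member of the Dickkopf family, at chr7:111743452-111743928, ranked 1873 and 623 in AnaVI wild type and was in no CatVII wild type list. At Wnt4, a ligand, the intron chr4:137010069-137010549 ranked 2911 and 4113 in AnaVI. The Fzd3 region at chr14:65526008-65526427, 26237 bp upstream, ranked 6550 and 5906. Tcf7l2 had the other 2 calls, an intronic region at chr19:55783924-55784087 with ranks 451 and 3984 and another at chr19:55776762-55776967 with ranks 6373 and 5900. In the full lists each Tcf7l2 region was called in 1 of 6 CatVII wild type libraries. The Dkk3 region was called in 2 of those 6, Wnt4 in 3 and Fzd3 in 0. The Tcf7l2, Dkk3 and Wnt4 regions were called in every library of the Rxra cKO (3) and Rxra WT (4) groups at CatVII. There the Fzd3 region lacked a peak only in 1 Rxra cKO library. Absence from the equal-length lists was thus not absence at CatVII. At equal list length, the number of regions per window did not overlap between the groups at Dkk3, with 0 in each of the 6 CatVII wild type libraries and 2 in each AnaVI library. Nor did it overlap at Wnt4, with 0 in CatVII wild type and 1 and 2 in AnaVI. Those 2 genes of 35 compare with 5.11% of all gene windows lower in CatVII. No gene was higher without overlap, against 4.94% of windows, and no region of 4 shared by all libraries passed the rank test, against 2.45% higher and 3.77% lower over all regions, and 1 of the 4 had an unadjusted p under 0.05.

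Loss of Rxra in CatVII HFSCs was compared next. At 41317 peaks a library, 199 Wnt-gene regions were callable. Of these, 4 were called for Rxra cKO, against 0.665% of all regions, 5 for Rxra WT, against 1.85%, and none of 64 shared regions passed the rank test in either direction, against 0.0121% higher and 0% lower over all regions. Of those 64, 9 had an unadjusted p under 0.05, and the lowest adjusted p was 0.360.

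The regions called for CatVII Rxra WT lay at the ligands Wnt2b, Wnt16, Wnt5b and Wnt1 and at the receptor Fzd3. The promoter of Wnt2b at chr3:104868612-104869838 was in no Rxra cKO list and ranked 24546, 17650, 29768 and 35292 in Rxra WT. A region 7907 bp upstream of Wnt16, a ligand, at chr6:22279874-22281133, was likewise absent from Rxra cKO lists and ranked 39768, 20462, 25318 and 21644 in Rxra WT. An intronic Wnt5b region ranked between 18974 and 24867 in Rxra WT, and a Wnt1 region 45290 bp upstream between 21595 and 31258. The latter lies in an intron of Arf3, and its nearest start, 16358 bp away, is that of Fkbp11. The call at Fzd3, chr14:65503699-65504240, lies 26 bp from the start of the neighbouring gene Fbxo16. Absence from the equal-length lists was not absence from the full lists: 1 of 3 Rxra cKO libraries had a peak at the Wnt2b promoter, at the Wnt16 region and at the Wnt5b region, and 2 of 3 at the Wnt1 region.

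The Rxra cKO calls lay in introns of Lrp5, Tcf7l2 and Wnt3a. At the co-receptor Lrp5, the introns at chr19:3715397-3715766 and chr19:3716659-3716895 ranked 40421, 34124 and 33398, and 25059, 27318 and 30845, in the Rxra cKO libraries. A Tcf7l2 intron at chr19:55741148-55741550 ranked 27925, 36838 and 28859, and the fourth was a Wnt3a intron shared with the Wnt9a window. All 4 were in the lower part of the lists, and each had a peak in 1 to 3 of the 4 Rxra WT libraries when all called peaks were used.

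Counted by window, Rxra cKO libraries had fewer regions at 4 of 46 genes without overlap, against 3.27% of all windows, and more at none, against 1.06%. Fzd7 had 4, 4 and 3 regions in Rxra cKO against 9, 6, 7 and 8 in Rxra WT. Rnf43, the ubiquitin ligase that removes Frizzled, had 7, 5 and 6 in Rxra cKO against 8, 10, 9 and 8 in Rxra WT. The remaining pair shares a locus: Wnt1 had 2, 0 and 2 against 3 in each Rxra WT library, and Wnt10b 2, 1 and 2 against 3, 4, 3 and 4. Genotype and tag are partly confounded here, and Rxra WT replicates 2, 3 and 4 are stored under names that continue the wild type series. With the P42-tagged libraries alone, 3 Rxra cKO and 1 Rxra WT, the counts were 15 regions for Rxra cKO and 35 for Rxra WT.

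In culture, adding corpses was compared with medium alone. This comparison was limited to 4812 peaks a library by the medium libraries, and 14 Wnt-gene regions were callable. Of these, 5 were called for Rxra WT cultures with corpses, against 20.7% of all regions, and 0 for medium, against 11.4%. Of the 2 regions shared by all 6 libraries none passed the rank test, against 2.43% higher and 4.86% lower over all regions, and 1 had an unadjusted p under 0.05.

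All 5 lay away from promoters. An intron of Tcf7l2 at chr19:55783786-55784183, 53224 bp from a start, ranked 509, 2258, 3109 and 2889 with corpses and was in neither medium list. The region 46161 bp upstream of Wnt11, a ligand of the non-canonical kind, at chr7:98437589-98438270, ranked 280, 2221, 2867 and 1842 with corpses. Regions upstream of Fzd10 at chr5:128656222-128656716 and of Notum, which removes the lipid that Wnt ligands need, at chr11:120588528-120589155, ranked 4615, 3290, 1517 and 2897, and 1715, 2131, 1786 and 3781. By median rank the strongest of the 5 was upstream of Wnt8a, at chr18:34641199-34641542, with ranks 685, 1362, 1082 and 651. That region lies in an intron of Fam13b, 1444 bp from its start. Each of the 5 was present in every corpse library and missing from both medium lists. Without Rxra WT medium replicate 3 or 4, 7 and 4 regions were called for medium.

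The same 5 regions were called in most libraries that received AA+LPC+RA, using all called peaks. Fzd10 and Notum had a peak in 4 of 4 AA+LPC+RA libraries, and Wnt11, Wnt8a and Tcf7l2 in 3 of 4. Of the 4 medium libraries, 1 had a peak at Fzd10 and 1 at Wnt8a, both of them Rxra cKO, and none at the other 3 regions. Peak number moves with this contrast: the AA+LPC+RA libraries had 12989 to 89590 peaks, and its part in the result was not tested. By window, 5 of 26 genes had more regions with corpses without overlap, against 12.9% of windows, the genes of the 5 regions. Wnt5b and Znrf3 had fewer, 0 in each corpse library and 1 in each medium library, against 4.91% of windows.

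Under corpses, Rxra cKO cultures were compared with Rxra WT cultures at 72047 peaks a library. Of 261 callable Wnt-gene regions, 11 were called for Rxra cKO, against 3.63% of all regions, and 1 for Rxra WT, against 1.79%. Among 146 shared regions, 3 ranked higher in Rxra cKO and 0 lower, against 1.67% and 0.527% of all shared regions. The shares of 4.21% and 0.383% are read against those backgrounds, with median rank differences of -0.0077 over the 146 regions and -0.017 over all.

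The 3 regions past the rank test belonged to a co-receptor, a receptor and an inhibitor. At Lrp6, which carries the signal from the ligand into the cell, the intron at chr6:134477767-134477995 ranked 5795, 9227 and 6734 in Rxra cKO cultures against 34336, 22915, 21305 and 20643 in Rxra WT cultures. Every Rxra cKO library ranked it above every Rxra WT library, with a difference of 1.69 ± 0.42 (SE, adjusted p = 0.0351, limma). The region 30651 bp upstream of Fzd1, at chr5:4838356-4838908, ranked 4173, 1886 and 1243 in Rxra cKO and 10605, 26632, 10815 and 6290 in Rxra WT, again without overlap (2.45 ± 0.63, adjusted p = 0.0404, limma). Upstream of Sfrp1, a soluble decoy that binds Wnt ligands, chr8:23876542-23876824 ranked 18642, 13776 and 27462 against 42964, 52851, 42218 and 42052 (0.96 ± 0.25, adjusted p = 0.0397, limma). Without Rxra WT replicate 2, 3 or 4, none of the 3 passed. Leaving out each library in turn, the adjusted p ranged over 0.0434 to 0.119 at Lrp6, 0.0392 to 0.151 at Fzd1 and 0.0153 to 0.140 at Sfrp1, and with the NonPhago-tagged libraries alone, 2 of each genotype, none passed.

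The 11 regions called for Rxra cKO cultures lay at an effector, receptors, a ligand and inhibitors. Tle4 had 3 of them, in and upstream of the gene, with ranks between 27262 and 63681. Lrp5 and Lrp6 had 1 each, at chr19:3781231-3781543 (38189, 49050 and 18828) and chr6:134503277-134503498 (22126, 46247 and 44667). The other 6 were 1 region each at Fzd1, Fzd6, Wnt5b, Notum, Sfrp2 and Sfrp4, of which the Fzd1 region lies 978 bp from the start and ranked 63399, 58753 and 71323. The only region called for Rxra WT was a Tcf7l2 intron at chr19:55865021-55865392, with ranks 39403, 55919, 46813 and 31587. In the full lists 2 of 3 Rxra cKO corpse libraries also had a peak there. Of the Rxra cKO calls, those at Wnt5b, Lrp6 and Fzd6 had a peak in 2 of 4 full Rxra WT corpse lists. Those at Sfrp2 and Notum, and at Tle4 chr19:14552549-14552873 and chr19:14623159-14623369, had one in 1 of 4. The Fzd1, Sfrp4, Lrp5 and remaining Tle4 regions had none.

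Window counts moved both ways. Tle4 had 11, 12 and 10 regions in Rxra cKO cultures against 7, 5, 8 and 6 in Rxra WT cultures, and Fzd1 had 5, 4 and 4 against 3 in each Rxra WT library. These 2 of 48 genes were higher without overlap, against 3.89% of windows. Another 5 genes were lower, against 4.77% of windows. Of them, Znrf3 had 11, 9 and 11 in Rxra cKO against 12, 14, 15 and 13 in Rxra WT, Wnt7b 9, 8 and 9 against 10, 11, 13 and 11, and Ctnnb1 5 in each Rxra cKO library against 6, 8, 6 and 6. The other 2 were Wnt1 and Wnt10b, which share peaks and also had fewer regions in CatVII Rxra cKO than in CatVII Rxra WT.

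BEL treatment of the corpses gave the most rank differences. At 63739 peaks a library, 238 Wnt-gene regions were callable, of which 11 were called for BEL-treated corpses, against 2.26% of all regions, and 2 for untreated corpses, against 0.729%. Of 136 regions shared by all 8 libraries, 20 ranked higher with BEL-treated corpses and 12 lower, against 13.4% and 10.3% of all shared regions, so the shares of 14.7% and 8.82% were near the background. Ranking by fold enrichment left 4 higher and 1 lower, and the NonPhago-tagged libraries alone, 2 of each kind, left no rank call and gave 29 regions for BEL-treated and 8 for untreated corpses. Position divided the calls. Within 1 kb of a start of any protein-coding gene, neighbours included, 15 of 29 Wnt-gene regions ranked higher and 0 lower. Elsewhere 5 of 107 ranked higher and 12 lower. The whole genome was divided alike, with 39.3% of promoter regions higher and 2.38% lower, and 4.50% higher and 13.0% lower elsewhere. The median difference over all regions was 0.66 at promoters and -0.17 elsewhere. When promoters and other regions were ranked separately, a choice made after seeing the data, 12 Wnt-gene regions ranked higher and 4 lower.

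Among the promoters of the Wnt genes themselves, those of Fzd5 and Fzd4 had the largest differences, followed by Tle4 and Fzd6. The promoter of Fzd5, at chr1:64775364-64777571, ranked 633, 249, 897 and 809 with BEL-treated corpses against 10633, 10335, 3819 and 4061 with untreated corpses, which do not overlap. The difference was 3.45 ± 0.56 (SE, adjusted p = 0.00126, limma), and it was 2.65 and still past the threshold when promoters were ranked by themselves. At Fzd4 the promoter ranked 1390, 5514, 1762 and 2285 against 36685, 11524, 7234 and 12683 (2.49 ± 0.51, adjusted p = 0.0043, limma). Fzd6 ranked 6681, 9380, 4947 and 6222 with BEL-treated corpses and 38583, 32887, 12309 and 19005 with untreated corpses (1.68 ± 0.34). In these 3 the groups did not overlap, and each passed with any single library left out. Among promoters alone, the Fzd4 and Fzd6 differences of 1.48 and 0.69 no longer passed. The promoters of Lrp6 (1.15 ± 0.33) and Fzd10 (0.75 ± 0.17) also ranked higher, and that of Lrp6 did not pass without BEL replicate 1 or 3 or untreated replicate 4.

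Feedback and effector promoters ranked higher too. Znrf3 ranked 10826, 9947, 9182 and 9598 with BEL-treated corpses against 37958, 34867, 27389 and 30155 with untreated corpses (1.53 ± 0.22, adjusted p = 0.000752, limma). Axin2, a scaffold of the destruction complex and a direct target of the pathway, ranked 8305, 11749, 10683 and 9821 against 24673, 19857, 22856 and 34174 (1.20 ± 0.25). Ctnnb1 ranked 13379, 13115, 18457 and 15278 against 47045, 50103, 20367 and 47948 (1.06 ± 0.23). None of these 3 overlapped between groups and all 3 passed with any single library left out, but among promoters alone their differences of 0.55, 0.30 and 0.27 did not pass. Tle4 (2.04 ± 0.65, adjusted p = 0.0354, limma) ranked 323, 378, 490 and 228 against 4664, 1819, 486 and 1022, which overlap. It passed in 2 of the 8 fits that left out a library, and its direction turned to -0.025 when peaks were ranked by fold enrichment. Some of the higher regions in these windows are promoters of neighbours: that of Aspscr1 in the Notum window (3.03 ± 0.43), Arf3 in the Wnt1 window (1.68 ± 0.30), Prkag1 in the Wnt10b window (1.10 ± 0.36) and Fam13b in the Wnt8a window (0.94 ± 0.26). So are that of Fbxl14 in the Wnt5b window (1.35 ± 0.27) and that of Prkag3 in the shared window of Wnt6 and Wnt10a (0.36 ± 0.12). The Fbxl14 difference passed in all 8 fits that left out a library, and the Prkag3 difference in 2. The Prkag1 and Fam13b differences did not pass in 6 and 2 of the 8 fits that left out a library.

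Away from starts, the 5 higher regions were at ligands and Fzd2. Upstream of Wnt16, the region that was called for CatVII Rxra WT ranked 16097, 19515, 16249 and 21605 with BEL-treated corpses against 45642, 26176, 36018 and 35918 with untreated corpses (0.75 ± 0.18, adjusted p = 0.00987, limma). An intron of Wnt7a ranked 17606, 20432, 21637 and 15119 against 34293, 30179, 29913 and 35668 (0.66 ± 0.18, adjusted p = 0.0163, limma). Neither overlapped between groups. The others were at Wnt9a, 1295 bp from the start (1.00 ± 0.26), in a Wnt3a intron (0.57 ± 0.17) and upstream of Fzd2 (0.56 ± 0.12). All 5 passed also when regions outside promoters were ranked by themselves, and only the Wnt3a intron lost its call in some fits that left out a library.

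The 12 lower regions lay in introns and upstream. At Tcf7l2, the intron described above ranked 6897, 11429, 8922 and 8485 with BEL-treated corpses against 509, 2258, 3109 and 2889 with untreated corpses (-2.37 ± 0.58, adjusted p = 0.010, limma). Upstream of Wnt8a, the same region as in the medium comparison ranked 4047, 4433, 5852 and 3022 against 685, 1362, 1082 and 651 (-2.31 ± 0.47, adjusted p = 0.00419, limma). Upstream of Wnt11, the ranks were 4359, 6099, 7798 and 5034 against 280, 2221, 2867 and 1842 (-2.20 ± 0.70, adjusted p = 0.0339, limma). In each of the 3, every BEL library ranked the region below every library with untreated corpses. The Tcf7l2 and Wnt8a regions passed with any single library left out, whereas Wnt11 did not pass when any BEL library was left out. Among regions outside promoters ranked by themselves, Wnt8a still passed (-1.50), and Tcf7l2 (-1.85) and Wnt11 (-1.45) did not.

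Inhibitor regions made up 6 of the 12. Dkk3 had a region 2114 bp upstream, at chr7:111760585-111761671, that ranked 15092, 15611, 16237 and 14406 with BEL-treated corpses and 13684, 2832, 5988 and 7794 with untreated corpses (-1.24 ± 0.40), and another at 42807 bp (-0.95 ± 0.31). The Sfrp1 intron at chr8:23918642-23919219 ranked 14673, 15764, 15520 and 14484 against 11441, 6838, 7516 and 7041 (-0.91 ± 0.28). At Znrf3, 3 introns differed by -0.89 ± 0.26, -0.80 ± 0.27 and -0.72 ± 0.22, although the Znrf3 promoter ranked higher. Each of these 6 regions lost its call in at least 4 of the 8 fits that left out a library. Among the others, the Lrp6 intron that had ranked higher in Rxra cKO ranked 52403, 41272, 36078 and 39742 with BEL-treated corpses against 34336, 22915, 21305 and 20643 (-0.61 ± 0.14, adjusted p = 0.0079, limma), and it passed in all 8 such fits. The remaining 2 were at Wnt5b (-0.38 ± 0.13) and nearer to Wnt8a (-2.26 ± 0.69), and each passed in 3 of the 8 fits. Untreated Rxra WT corpse cultures serve as the reference of this comparison and of the Rxra cKO comparison, so both rest on the same 4 libraries.

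**Figure D3:**
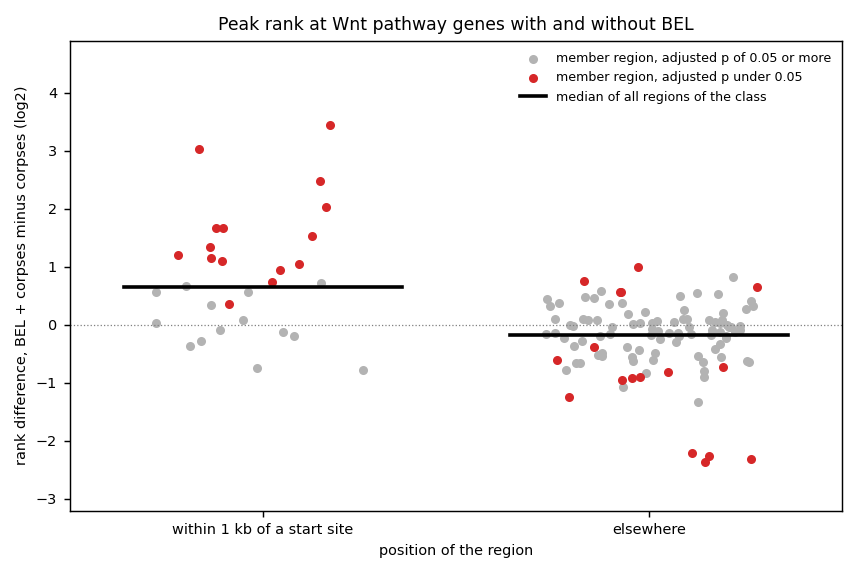
Difference in -log2 rank between Rxra WT cultures with BEL-treated and with untreated corpses for each of the 136 shared Wnt-gene regions, by position (within 1 kb of a start, or elsewhere). Red points passed the adjusted threshold and bars are the medians of all regions of each class. All 15 called promoter regions lie above 0, and 12 of the 17 called regions elsewhere lie below 0.

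Of ligand promoters, 4 were called for BEL-treated corpses and 1, that of Wnt5b, for untreated corpses. The promoters of Wnt10a (ranks 35757, 42204, 60350 and 57276), Wnt2b (46233, 50177, 45931 and 46073), Wnt3a (51289, 46116, 57829 and 54229) and Wnt9b (44874, 36445, 38613 and 45105) were in all 4 lists with BEL-treated corpses and in none with untreated corpses. So were the promoters of Lrp5 (32150, 36750, 40855 and 41007) and Notum (51081, 55454, 62393 and 61197). Promoters were thus 6 of the 11 calls, and the other 5 were 2 regions at Wnt7b and 1 each at Wnt10a, Sfrp2 and Dkk3. The share of promoters among all regions called for BEL-treated corpses was not counted, so the 6 cannot be read as a trait of Wnt promoters. With all called peaks, no Rxra WT library with untreated corpses had a peak in the Wnt3a region. At Wnt10a, Wnt9b, Lrp5 and Notum 2 of these 4 had one, and at Wnt2b 1 of 4. Of the Rxra cKO libraries with untreated corpses, 3 of 3 had a peak at Wnt3a and at Lrp5. There 2 had one at Wnt9b, 1 at Wnt2b and 0 at Wnt10a and Notum. The Lrp5 promoter, the Tcf7l2 intron below and 1 Wnt7b region lost their calls without BEL replicate 2. The 2 regions called for untreated corpses were at the Wnt5b promoter, 832 bp from a start (35000, 29411, 53657 and 45259), and in an intron of Tcf7l2 (27236, 58153, 52581 and 39289). The summit of the former lies in a UTR of the neighbouring gene Fbxl14. By window, Wnt7b was the single gene of 50 with more regions and no overlap, 14, 14, 12 and 13 with BEL-treated corpses against 9, 10, 11 and 9, set beside 6.3% of all windows, and none had fewer, against 0.746%. Lef1, a TCF/LEF factor with no call in these lists, had a promoter peak in 4 of 4 full lists with BEL-treated corpses and in none of the 7 lists with untreated corpses, of either genotype. Full lists differ in length, and the share of all promoters with this pattern was not counted, so it cannot be read as particular to Lef1.

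The last comparison set Rxra WT cultures with corpses against CatVII Rxra WT HFSCs, at 43758 peaks a library. It spans culture, feeder cells and hair cycle stage at once, which cannot be told apart. Of 182 callable Wnt-gene regions, 20 were called for culture, against 21.6% of all regions, and 28 for CatVII, against 13.7%. Of 56 shared regions, 3 ranked higher in culture and 5 lower, against 11.9% and 9.88% of all shared regions. The shares among Wnt-gene regions were 11.0% for culture and 15.4% for CatVII. Without CatVII Rxra WT replicate 1, the library tagged P42, 56 regions were called for CatVII and 26 shared regions passed the rank test.

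Ligands and agonists held 10 of the 20 culture regions. Wnt7a, a ligand made by the epidermis, had 4, of which the intron at chr6:91349909-91350349 ranked 9381, 4408, 17452 and 5477 and the upstream region at chr6:91428974-91429587 ranked 8199, 6555, 7089 and 15620. In the full lists this intron had a peak in 1 of 4 CatVII Rxra WT and 2 of 3 CatVII Rxra cKO libraries. The upstream region had one in 2 of 4, in 2 of 3 and in 1 of 2 AnaVI libraries. The remaining Wnt7a regions had none in vivo. Wnt5a and Wnt7b had 2 regions each. Rspo1 and Rspo2, agonists of the pathway, had 1 region each, at chr4:124877970-124878438 (34007, 16690, 17636 and 20888) and chr15:43042952-43043374 (11520, 25491, 18475 and 22068). No in vivo library of any group had a peak at the Rspo2 region, while every cultured library with corpses, treated or not, did. The region upstream of Fzd1 was also called for culture, with ranks 10605, 26632, 10815 and 6290, and so was 1 region each of Fzd4, Lrp6, Rnf43 and Tcf7l2.

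The inhibitors split by region. For culture, Dkk3 was called at chr7:111760618-111761143 (13684, 2832, 5988 and 7794) and at 25156 bp upstream, Sfrp1 in its intron (11441, 6838, 7516 and 7041) and Znrf3 in introns at 86661 bp (16111, 9144, 9816 and 9700) and 12395 bp (12860, 15877, 14848 and 12974) from a start. For CatVII, Dkk3 was called at 3 other regions, with ranks between 15472 and 38229, and Znrf3 at another intron, chr11:5361345-5362444 (12504, 13554, 6903 and 6557). Neither Znrf3 intron called for culture had a peak in any in vivo library. Dkk3 and Znrf3 therefore carried regions called for each side within a single window.

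Effectors and receptors held many of the CatVII regions. Tcf7l2 had 6 intronic or upstream regions called for CatVII, the strongest at chr19:55767919-55768832 with ranks 5334, 5939, 5983 and 10848, although 1 of 4 full culture lists had a peak there. The Axin2 region 9204 bp upstream, at chr11:108801342-108802418, ranked 17079, 14816, 7943 and 4392 in CatVII Rxra WT and had no peak in any cultured library. The promoter of Tcf7, a TCF factor (16146, 14289, 19564 and 34082), a region of Tle4 (18748, 18994, 10012 and 7823) and one of Ctnnb1 (29956, 21054, 11697 and 21205) were also called for CatVII, and at Tcf7 all 4 full culture lists held a peak. At the receptors these were 2 regions each of Fzd3, Lrp5 and Lrp6 and 1 of Fzd7, with the Lrp6 region at chr6:134554495-134555588 at ranks 3810, 5687, 4896 and 2543, although 3 of 4 full lists of Rxra WT corpse libraries had a peak there. Of ligands, Wnt7b had 3, and Wnt2b, Wnt16 and Wnt8b 1 each, and the remaining call was a Rnf43 intron, where all 4 full culture lists held a peak.

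A Tcf7l2 intron and the Wnt8a upstream region, both called against medium, ranked higher in culture. At Wnt8a the ranks were 685, 1362, 1082 and 651 in culture against 23185, 12308, 24005 and 18905 in CatVII (4.05 ± 0.53, adjusted p = 9.22e-05, limma). At Tcf7l2 they were 509, 2258, 3109 and 2889 against 12252, 17672, 24908 and 16706 (3.07 ± 0.59, adjusted p = 0.00155, limma). Neither overlapped between groups, and both passed under every alternative in which they could be tested, which leaves out the shorter lists and, for Wnt8a, the 10 kb window. The third was a Wnt1 region 45317 bp upstream (0.76 ± 0.21), the one called for CatVII Rxra WT against Rxra cKO. Lower in culture were the Lrp6 intron (34336, 22915, 21305 and 20643 against 5238, 11642, 9058 and 5678, -0.94 ± 0.29, adjusted p = 0.0256, limma), regions of Fzd7 (-0.76 ± 0.22) and Dkk3 (-0.78 ± 0.24), the Znrf3 promoter (-0.62 ± 0.20) and the promoter of Airim in the Rspo1 window (-1.87 ± 0.49). Of these, the Lrp6 and Znrf3 regions did not pass when any culture library was left out, nor the Fzd7 region without culture replicate 2, 3 or 4, nor the Dkk3 region without culture replicate 3 or 4.

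Window counts separated 11 of 48 genes. Higher in culture were Wnt7a with 6, 5, 7 and 6 regions against 1, 1, 1 and 2 in CatVII Rxra WT, Wnt5a with 2, 3, 2 and 3 against 0, 1, 0 and 1, Rspo1 with 2 against 1 in each library, Rspo2 with 2, 1, 2 and 2 against 0, and Fzd4 with 3 in each against 1, 2, 2 and 2. Those are 5 genes, beside 13.5% of all windows. Lower in culture were Tcf7l2 with 7, 6, 6 and 7 against 18, 15, 16 and 15, Fzd3 with 1, 0, 1 and 0 against 6, 6, 4 and 5, and Fzd7 with 3, 4, 4 and 4 against 9, 6, 7 and 9. Axin2 (3, 2, 3 and 3 against 5, 4, 5 and 5), Ctnnb1 and Wnt10b complete the 6 genes, beside 11.7% of windows. These shares of genes lie near those of the genome. AP-1 letters were in 13 of the 20 regions called for culture and 6 of the 28 called for CatVII, beside 61.2% and 16.5% of all regions called in the same way, while TCF/LEF letters were in 1 of 20 and 3 of 28, beside 2.53% and 2.85%.

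**Figure D4:**
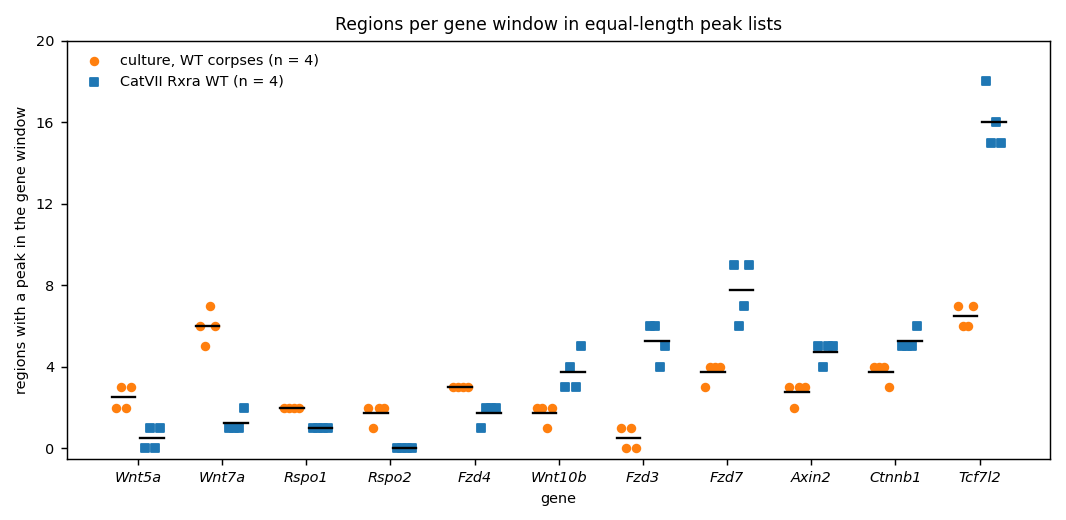
Number of regions with a peak in the gene window of each library, at equal list length, for the 11 genes whose counts did not overlap between Rxra WT cultures with corpses (circles, n = 4) and CatVII Rxra WT (squares, n = 4). Bars are means. Tcf7l2 had 6 or 7 regions in culture and 15 to 18 in CatVII, and Wnt7a 5 to 7 in culture and 1 or 2 in CatVII.

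Of the 110 distinct regions, 21 were called in more than 1 comparison, and the like share over all regions of the genome was not counted. The Tcf7l2 intron was called in 4 and had a peak in 24 of 34 libraries. The Wnt8a upstream region, the Lrp6 intron and the Wnt2b promoter were called in 3 each. The Wnt2b promoter was called for Rxra WT against Rxra cKO in CatVII, for BEL-treated against untreated corpses, and for CatVII against culture. Comparisons that share the untreated Rxra WT corpse libraries or the CatVII Rxra WT libraries are not independent of each other.

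**Figure D5:**
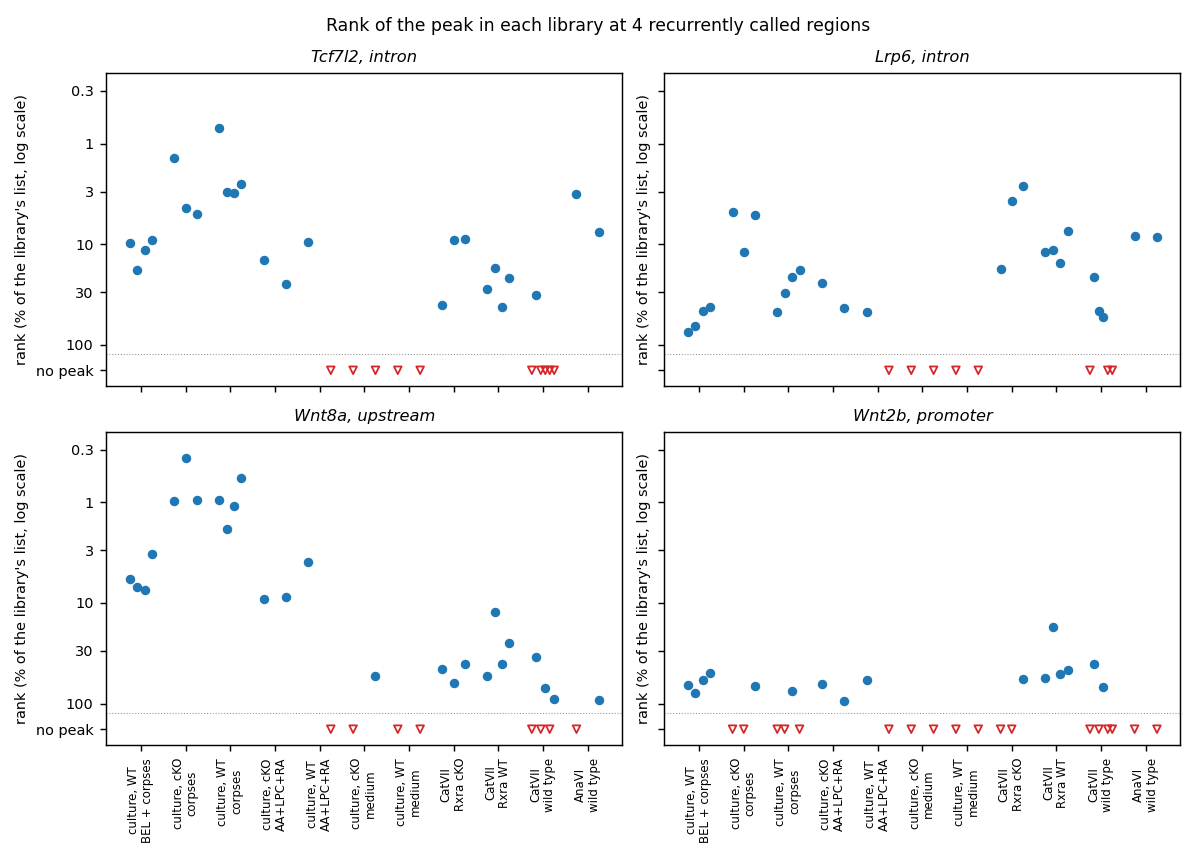
Rank of the peak at 4 regions called in 3 or 4 comparisons, as a percentage of the library's full list on a log axis with the strongest at the top, for all 34 libraries by group. Points are libraries and open triangles are libraries with no called peak. The Tcf7l2 intron has a peak in 24 of 34 libraries and in none of the 4 medium libraries, the Lrp6 intron and the Wnt8a region in 26 and the Wnt2b promoter in 16.

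Another 46 genes of the pathway, listed for their place in it and including Dvl, Apc, Axin1, Gsk3b, Lgr and Tle genes, were counted in the same way. Between the cycle stages, 0 of their 67 callable regions were called for CatVII wild type and 11 for AnaVI wild type, against 4.92% and 9.55% of all regions, among them regions of Lgr5, an R-spondin receptor and stem cell marker, and Tcf7l1, a TCF repressor expressed by HFSCs. Of 4 shared regions, 0 ranked higher and 1 lower in CatVII, against 2.45% and 3.77%. Loss of Rxra in CatVII gave 1 region for Rxra cKO and 3 for Rxra WT of 274, against 0.665% and 1.85%, and no rank call among 117 shared regions, against 0.0121% higher and 0% lower. Corpses gave 4 of 16 against medium, beside 20.7%, with 0 for medium, beside 11.4%, and no region was shared by all libraries. Under corpses, 7 of 373 were called for Rxra cKO and 4 for Rxra WT, against 3.63% and 1.79%, and 4 of 198 shared regions ranked higher and 1 lower, against 1.67% and 0.527%. BEL-treated corpses gave 8 of 322 and untreated corpses 1, against 2.26% and 0.729%, with 30 of 197 shared regions higher and 15 lower, against 13.4% and 10.3%. Culture gave 26 of 256 and CatVII 56, against 21.6% and 13.7%, with 4 of 84 shared regions higher in culture and 10 lower, against 11.9% and 9.88%.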

How the data were processed

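ATAC-seq was measured in 34 libraries of 11 groups, taken from the labels. Per the methods of the study, BWA-MEM 0.7.18 placed the reads on mm39, SAMtools 1.17 took out duplicates, and MACS3 3.0.0 found peaks library by library with no control. In the deposited lists, each peak has a fold enrichment over local background (a ratio), a -log10 p and a -log10 q, a whole-number score that is 10 times the -log10 q, and a summit offset. The deposited -log10 p grows with depth, and with no read counts in the lists depth is unknown and no counting interval can be given.

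Peaks on 19 autosomes, X and Y were used with the GENCODE vM39 annotation of GRCm39, the same assembly as mm39. In each of 6 comparisons the lists were cut to the length of the smallest library, peaks sharing at least 1 bp were merged, and a region was placed by the summit of its strongest peak. A region was callable when at least as many libraries had it as the smaller group holds. Ranks were tested with limma 3.58.1 in R 4.3.3 (moderated, with trend, two-sided, threshold 0.05 after Benjamini-Hochberg adjustment over all shared regions). The procedure was tested on simulated data for the layout of the BEL comparison alone, with noise that was independent between libraries. The other comparisons were not simulated. Sequences were read from GRCm39.

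The members and gene lists were chosen with earlier results of these data known. Genes named with values were those with most called regions, up to 30, and Ctnnb1, Lef1, Tcf7, Tcf7l2, Axin2, Lrp5 and Lrp6. Fzd2, Fzd5, Fzd8, Rspo2, Rspo3, Sfrp2, Sfrp4, Wnt2, Wnt3, Wnt4, Wnt6, Wnt8b, Wnt9b and Wnt10b were named after their values were seen. Alternatives were other list lengths, peak thresholds, windows, overlaps, scales and ranking scores, replicates left out, a replicate block and the stored tags. Ranking promoters apart and using NonPhago-tagged libraries alone were chosen after seeing the data.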

Additional observations from a re-analysis of the deposited data

Results flagged for a closer look

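In 36 groups of 4 to 10 libraries tested for a library far from the others, 6 stood apart. The cut-off, a gap set against the range, was chosen for a chance of 1 in 20. That rate does not hold for tied counts, where any single differing library is flagged, as at Tcf7, Axin2 and Lef1. With BEL-treated corpses, replicate 2 had promoter peaks at 36 of the 51 genes, against 41 or 42 in the other libraries, and 3 peaks at Tcf7, against 6. Replicate 3 had 4 peaks at Axin2, against 5 in the other libraries. CatVII wild type replicate 2 had 15 peaks at Tcf7l2, against 1 to 5, 12 at Lrp6, against 1 to 5, and 1 at Lef1, against 0 in the others. These are full lists, and that library held 52110 called peaks against 8311 to 27511 in the others of its group.

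The AA+LPC+RA libraries enter no comparison above, and they had peaks at the 5 regions called for corpses against medium. Peaks were called in 4 of 4 such libraries at Fzd10 and Notum and in 3 of 4 at Wnt11, Wnt8a and Tcf7l2, against 1 of 4 medium libraries at Fzd10 and at Wnt8a and 0 of 4 at the other 3. How many of all regions called for corpses had such peaks was not counted.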

How the results depend on the processing

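The counts of Wnt-gene regions depended on list length, threshold and window, and in each case the cause was not tested. Lists 2 times shorter left 1 region for CatVII Rxra cKO, 1 for corpses and 1 for medium, 2 for Rxra cKO corpses, 4 for BEL-treated and 0 for untreated corpses, and 13 for CatVII against culture, with 1 rank call for Rxra cKO corpses, 14 for BEL-treated corpses and 1 for culture. All called peaks gave 0 for CatVII Rxra cKO, 175 for corpses against medium, 2 for Rxra WT corpses, 3 for BEL-treated and 1 for untreated corpses, with 1 rank call for CatVII wild type, 1 for corpses against medium and 15 for culture. A -log10 q of at least 5 gave 3 for AnaVI, 2 for CatVII Rxra cKO, 1 for corpses against medium, 2 for Rxra cKO corpses, 1 for untreated corpses and 17 for CatVII against culture, with 1 rank call for Rxra cKO corpses and 4 for culture. The 10 kb window gave 1 for corpses against medium, 7 for Rxra cKO corpses, 12 for culture and 15 for CatVII, with 1 rank call for Rxra cKO corpses and 3 for culture. Ranking by fold enrichment left 0 rank calls for Rxra cKO corpses, 5 for BEL-treated corpses and 2 for culture, and turned the Tle4 promoter to -0.025. A linear scale left 1 for Rxra cKO corpses. Ranking promoters apart gave 1 for corpses against medium and 16 for BEL-treated corpses. P42-tagged libraries alone gave 15 for CatVII Rxra cKO and 35 for Rxra WT. NonPhago-tagged libraries alone gave 23 for Rxra cKO and 16 for Rxra WT corpses, 29 for BEL-treated and 8 for untreated corpses, and 0 rank calls in both comparisons. The Phago tag as a term gave 3 and 34 rank calls.

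Leaving out each library in turn, the regions for the 2 sides and the rank calls were 1 to 2, 5 to 15 and 0 to 1 for CatVII against AnaVI wild type, 3 to 17, 5 to 16 and 0 to 0 for Rxra cKO against WT in CatVII, 5 to 6, 0 to 7 and 0 to 0 for corpses against medium, 11 to 14, 2 to 7 and 0 to 6 for Rxra cKO against WT with corpses, 11 to 15, 1 to 4 and 18 to 35 for BEL-treated against untreated corpses, and 20 to 28, 29 to 56 and 4 to 26 for culture against CatVII. Without CatVII Rxra cKO replicate 1, 17 regions were called for Rxra cKO and 16 for Rxra WT, and those for Rxra WT were 9, 12 and 10 without Rxra cKO replicate 3, Rxra WT replicate 1 and Rxra WT replicate 3. Over single regions, 932 of 1054 such results kept direction and side of the threshold, as did 698 of 1002 under the other alternatives.

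In no comparison did every same-numbered pair of replicates correlate above 0.1 in its deviations (correlations from -0.14 to 0.24). With corpses, all were above 0 in the Rxra cKO and BEL comparisons. Of these, 2 of 3 pairs passed 0.1 in the Rxra cKO comparison and 2 of 4 in the BEL comparison. The main fits used no pairing. These correlations cannot exclude it, because the numbers in the titles and in the stored names differ in places. With the replicate block the rank calls were 0, 0, 0, 4, 35 and 9 in the order of the report, against 0, 0, 0, 3, 32 and 8 without it. The medium libraries, with the shortest lists, limit their comparison to 14 callable regions.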
